A study of Arabidopsis thaliana with 8 samples.

Results

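Chlorophyll breakdown genes are described here through 8 *Arabidopsis thaliana* genes chosen by their locus identifiers, out of 34133 genes with an expression value. They are *NYC1* (AT4G13250), *HCAR* (AT1G04620), *SGR1* (AT4G22920, also called *NYE1*), *SGR2* (AT4G11910), *PPH* (AT5G13800), *PAO* (AT3G44880), *RCCR* (AT4G37000) and *CLH1* (AT1G19670). The rule uses no measured value, but the list was drawn up with earlier results of these data known. Transcripts of entire rosettes were sequenced in 4 groups, named *ros1* IM, *ros1* control, WT IM and WT control. WT is the accession Col-0, and *ros1* is a hypomorphic T-DNA mutant (SALK_064264) of *REPRESSOR OF SILENCING 1* (AT2G36490), whose product removes methylated cytosine from DNA. IM stands for imazethapyr, a herbicide that blocks acetolactate synthase, given at 10.6 g ha-1 with 0.5% v/v of the adjuvant Dash. The control plants are labelled both as mock and as not treated, and whether they received Dash is not stated, so effects of the adjuvant and of imazethapyr cannot be told apart. All plants were 3 weeks old, and rosettes were collected 48 h after the application. Each group held 2 libraries, and each library pooled the rosettes of 2 plants.

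Chlorophyll is taken apart in the chloroplast when leaves age, starve or are kept in the dark. Chlorophyll *b* is first reduced to chlorophyll *a*, in a first step by *NYC1* and its relative *NOL* and in the next by *HCAR*. SGR proteins then remove the magnesium, *PPH* cuts off the phytol tail, *PAO* opens the ring, and *RCCR* reduces the red product to a colourless one, which prevents light damage to the cell. *CLH1* is a chlorophyllase, which cuts phytol from chlorophyll itself and is not required for breakdown in ageing leaves.

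The values are FPKM, fragment counts scaled to the length of the transcript and to the depth of the library. Each gene has 1 value in a group, which pools both libraries. They carry no spread between libraries, so no difference below has a test, an SD or an interval. A gene is counted as higher or lower where its FPKM differed at least 2-fold between 2 groups and reached 1 in at least 1 of them. Beside the counts stands the share of all genes past the same fold. Here all genes are those with a value in both groups that reached 1 FPKM in at least 1 of them. Comparisons that share a group are not independent of each other. In these bulk samples, fewer cells of a type and less RNA per cell cannot be told apart.

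The *ROS1* transcript stood at 4.08 FPKM in *ros1* IM, against 16.7 FPKM in WT IM. In the untreated groups it stood at 18.9 FPKM in *ros1* control, against 25.0 FPKM in WT control, a 1.32-fold difference, so that the untreated groups stood little apart in this transcript. The 5 leaf markers were present in every group but moved with the treatment, with a summed FPKM of 1414 in *ros1* IM and 38559 in *ros1* control, and of 8106 in WT IM and 39019 in WT control. Their part in the results below was not tested. The 11 markers of roots, flowers and seeds stayed under 1 FPKM wherever they were listed, with none listed in *ros1* IM. Values in *ros1* IM exist for 17284 genes, those that passed the authors' test in some comparison with this group, and the 8 genes are among them. Genes that passed no such test are missing from the shares of all genes in comparisons with *ros1* IM. These shares past 2-fold may therefore stand too high.

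The 250 bases before the annotated start (RefSeq, assembly TAIR10.1) are shown for 3 of the genes that moved in different ways: *SGR2*, which had the widest range over the groups, *PPH*, which was high in both treated groups, and *RCCR*, which was low in both *ros1* groups. They lie at chr4:7155900-7156149 on the forward strand, at chr5:4454814-4455063 on the reverse strand and at chr4:17442362-17442611 on the forward strand. Each is written 5′ to 3′ in the direction of its gene, and capitals mark matches to CACGTG (the G-box), ACGTG (the core of the abscisic acid responsive element, contained in the G-box) or TTGAC (the core of the W-box) on either strand.
SGR2: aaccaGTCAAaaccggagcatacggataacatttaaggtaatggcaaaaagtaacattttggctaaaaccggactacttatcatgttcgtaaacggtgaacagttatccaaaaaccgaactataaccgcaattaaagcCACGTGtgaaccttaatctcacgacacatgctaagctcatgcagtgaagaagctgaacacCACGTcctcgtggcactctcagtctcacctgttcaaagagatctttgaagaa
PPH: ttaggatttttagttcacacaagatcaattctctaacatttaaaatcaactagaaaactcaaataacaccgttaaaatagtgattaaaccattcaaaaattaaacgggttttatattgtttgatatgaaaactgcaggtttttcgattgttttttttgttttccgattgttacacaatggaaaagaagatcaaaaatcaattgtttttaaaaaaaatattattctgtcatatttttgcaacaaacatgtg
RCCR: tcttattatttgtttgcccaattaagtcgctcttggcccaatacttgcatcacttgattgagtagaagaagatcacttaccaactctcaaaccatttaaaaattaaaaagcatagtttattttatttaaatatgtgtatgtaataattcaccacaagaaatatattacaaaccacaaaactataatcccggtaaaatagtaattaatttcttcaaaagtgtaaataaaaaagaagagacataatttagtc
*SGR2* alone among the 8 genes held CACGTG, from 112 to 107 bases before its start. Of 27438 promoters of the same length, 6.49% held it. It was also the only gene of the 8 with ACGTG, which 22.9% of promoters held, on either strand of the G-box and once more from 52 to 48 bases before the start. TTGAC was matched in 2 of the 8, *SGR2* and *NYC1*, against 44.9% of promoters. *PPH* and *RCCR* held none of these letters in the window shown. These are matches of letters, not sites shown to be bound.

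*SGR1* encodes the magnesium dechelatase that acts when leaves lose their green colour. It lies at chr4:12016525-12018492 (TAIR10), on the reverse strand, with up to 5 exons. It stood at 83.5 FPKM in *ros1* IM and 10.13 FPKM in *ros1* control, and at 42.0 FPKM in WT IM and 8.96 FPKM in WT control. Both treated groups were thus above both untreated groups, 8.24-fold in *ros1* and 4.68-fold in WT. Of all genes compared, 5.36% had a ratio at least as high in *ros1* and 5.09% in WT. Without treatment the genotypes differed 1.13-fold in *SGR1*.

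*SGR2*, at chr4:7156252-7158042 with up to 4 exons, encodes a close paralogue of SGR1. It stood at 21.9 FPKM in *ros1* IM and 3.74 FPKM in *ros1* control, and at 10.7 FPKM in WT IM and 0.480 FPKM in WT control. It was under 1 FPKM in WT control only, and its largest value was 45.7 times its smallest, the widest range of the 8 genes. The ratio of IM to control was 5.86-fold in *ros1* and 22.3-fold in WT. The untreated genotypes stood 7.81-fold apart in *SGR2*, and 1.85% of genes had a ratio at least as high. The low WT control value sets the size of both ratios that use it. With a pseudocount of 1 FPKM the log2 ratio was 2.98 in place of 4.48 for WT IM against WT control, and 1.68 in place of 2.96 for *ros1* control against WT control. The exons of both genes share at most 28 bases in a row, against reads of 100 bases.

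Together the 2 *SGR* transcripts summed to 105 FPKM in *ros1* IM and 13.9 FPKM in *ros1* control, and to 52.7 FPKM in WT IM and 9.44 FPKM in WT control. *SGR2* made up 20.8% of that sum in *ros1* IM, 27.0% in *ros1* control and 20.3% in WT IM, but 5.08% in WT control. The share of the paralogue was therefore alike in the treated groups of both genotypes, and untreated *ros1* was closer to them than to untreated WT. The share in WT control rests on an *SGR2* value under 1 FPKM, and no spread is known for any of these shares.

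*PPH* encodes pheophytinase, which takes the phytol tail off the magnesium-free pigment. The gene lies at chr5:4451837-4454623, on the reverse strand, with up to 7 exons. It stood at 154 FPKM in *ros1* IM and 27.7 FPKM in *ros1* control, and at 112 FPKM in WT IM and 34.2 FPKM in WT control. The treated groups were 5.55-fold higher in *ros1* and 3.28-fold higher in WT, while the untreated groups differed 1.23-fold, with *ros1* control the lower.

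*PAO* encodes pheophorbide *a* oxygenase, the enzyme that opens the ring and commits the pigment to breakdown. It stood at 157 FPKM in *ros1* IM and 46.5 FPKM in *ros1* control, and at 84.7 FPKM in WT IM and 49.4 FPKM in WT control. It was 3.38-fold higher after treatment in *ros1* and 1.72-fold higher in WT, which misses the 2-fold limit. The files give it 1 shared locus with AT3G44870, at chr3:16382219-16386312, and RefSeq gives *PAO* up to 7 exons. AT3G44870 was listed at 0 FPKM in *ros1* control, WT IM and WT control, and it has no value in *ros1* IM.

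*RCCR* encodes red chlorophyll catabolite reductase and is also known as *ACD2*, since its loss in Arabidopsis brings spreading cell death. It is a gene of up to 2 exons at chr4:17442612-17443855. It stood at 11.6 FPKM in *ros1* IM and 18.1 FPKM in *ros1* control, and at 73.1 FPKM in WT IM and 81.1 FPKM in WT control. *RCCR* differed more between the genotypes than between the treatments. Set against WT, it was lower 6.31-fold among treated rosettes and 4.48-fold among untreated ones, whereas treated groups were lower than their controls by 1.56-fold in *ros1* and 1.11-fold in WT. Among all genes, 3.83% had a ratio at least as low between the untreated genotypes and 6.94% between the treated ones. The study states a smaller share of aligned reads in *ros1* than in WT, and its bearing on *RCCR* was not tested.

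**Figure D1:**
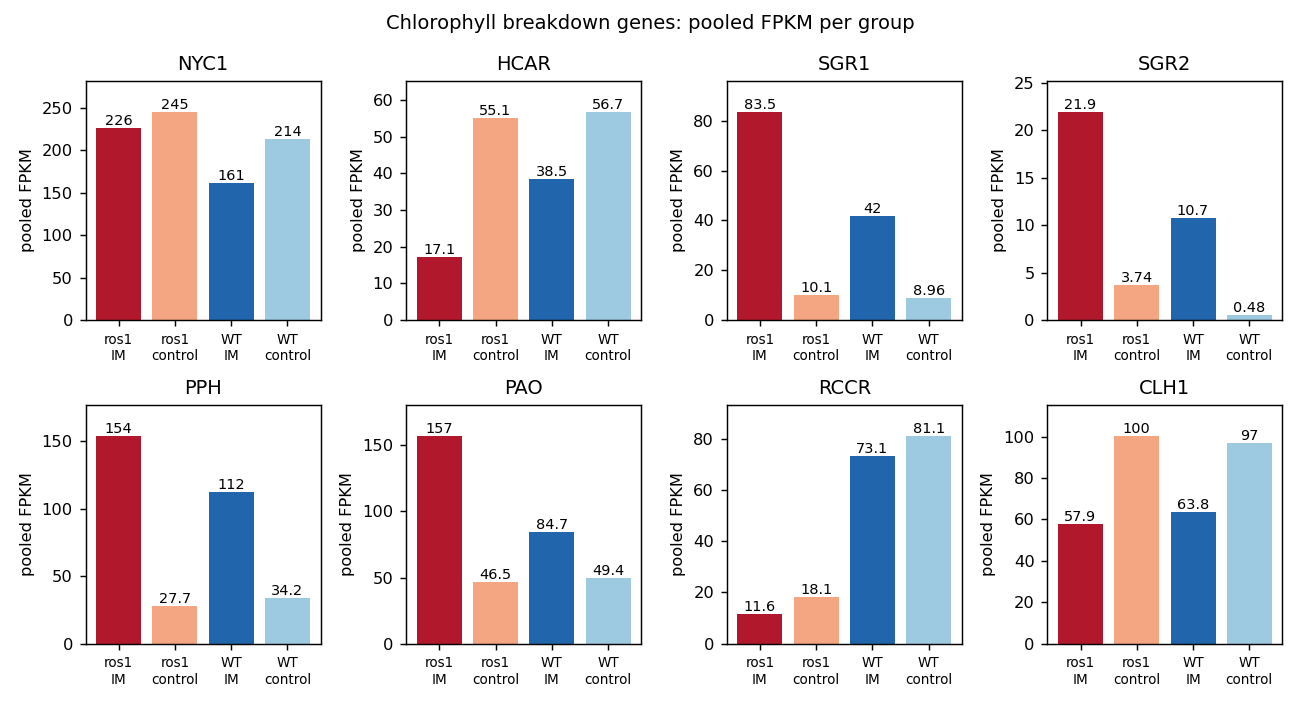
Pooled FPKM of the 8 chlorophyll breakdown genes, each in a panel with its own vertical axis from 0. Bars stand for *ros1* IM, *ros1* control, WT IM and WT control, 1 value a group over 2 libraries and hence with no error bar. *SGR1*, *SGR2*, *PPH* and *PAO* are highest in *ros1* IM and next in WT IM, while *RCCR* is low in both *ros1* groups (11.6 and 18.1 FPKM).

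*NYC1* encodes the chlorophyll *b* reductase of the thylakoid membrane and lies at chr4:7684156-7686876, on the reverse strand, with up to 10 exons. It stood at 226 FPKM in *ros1* IM and 245 FPKM in *ros1* control, and at 161 FPKM in WT IM and 214 FPKM in WT control. It was the most abundant of the 8 transcripts in every group and the one with the smallest range, 1.52-fold between its highest and lowest value. Its ratio of IM to control was below 1 in both genotypes, 0.923 in *ros1* and 0.756 in WT.

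*HCAR* encodes hydroxymethyl chlorophyll *a* reductase and lies at chr1:1282741-1286584, on the reverse strand, with up to 19 exons. It stood at 17.1 FPKM in *ros1* IM and 55.1 FPKM in *ros1* control, and at 38.5 FPKM in WT IM and 56.7 FPKM in WT control. Untreated groups differed 1.03-fold. Treated rosettes were 3.22-fold lower than untreated ones in *ros1* and 1.47-fold lower in WT, so the lowest value was that of *ros1* IM. The ratio of *NYC1* to *HCAR*, which act one after the other, was 13.2 in *ros1* IM and 4.44 in *ros1* control, and 4.19 in WT IM and 3.76 in WT control.

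*CLH1*, at chr1:6803611-6805044 on the reverse strand with up to 2 exons, stood at 57.9 FPKM in *ros1* IM and 100.3 FPKM in *ros1* control, and at 63.8 FPKM in WT IM and 97.0 FPKM in WT control. It was 1.73-fold lower after treatment in *ros1* and 1.52-fold lower in WT, and its treated levels stood 1.102-fold apart. The other enzyme of the 8 that cuts off phytol, *PPH*, moved the opposite way. The ratio of *PPH* to *CLH1* was 2.66 in *ros1* IM and 0.276 in *ros1* control, and 1.76 in WT IM and 0.353 in WT control, so the order of these transcripts was reversed in both treated groups.

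The response to imazethapyr in *ros1* and WT can be set side by side for all 8 genes. In *ros1* IM against *ros1* control, 4 of the 8 were at least 2-fold higher, namely *SGR1*, *SGR2*, *PPH* and *PAO*, where 20.7% of all genes were. *HCAR*, 1 of the 8, was at least 2-fold lower, where 26.8% of all genes were. In WT IM against WT control, 3 of the 8 were at least 2-fold higher, *SGR2*, *SGR1* and *PPH*, where 14.8% of all genes were. None of the 8 was at least 2-fold lower in WT, where 18.7% of all genes were, and no test stands behind this count of 0. The median log2 ratio of the 8 genes was 0.82 in *ros1*, beside 0.12 over all 16403 genes compared, and 0.32 in WT, beside 0.01 over 18829 genes. The shares and medians of all genes in *ros1* cover only genes listed in *ros1* IM. They are therefore not directly comparable with those in WT. In both genotypes 4 of the 8 had a ratio above 1 and 4 below it, and these were the same genes. The enzymes from magnesium removal to ring opening lay above, and *NYC1*, *HCAR*, *RCCR* and *CLH1* below. With no spread known, ratios as near 1 as those of *NYC1* in *ros1* (0.923) and *RCCR* in WT (0.902) have no sure side.

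**Figure D2:**
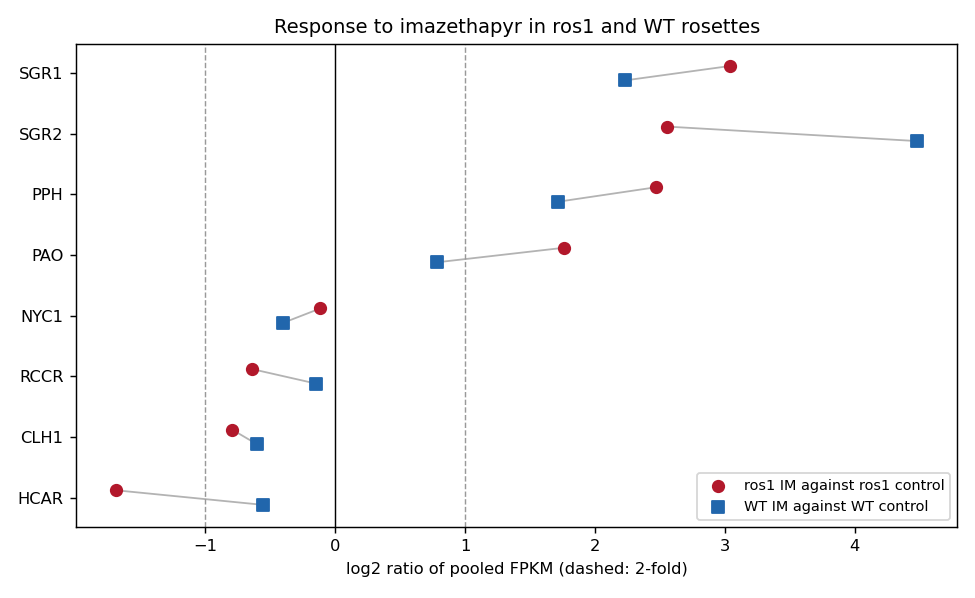
Log2 ratio of pooled FPKM in treated over untreated rosettes for each gene, with *ros1* as circles, WT as squares and dashed lines at 2-fold. *SGR1*, *SGR2*, *PPH* and *PAO* lie right of 0 in both genotypes, and *SGR2* is the only one of these 4 with the larger ratio in WT (4.48, against 2.55 in *ros1*).

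The response of *ros1* minus that of WT, on the log2 scale, lay within 1 of 0 for 6 of the 8 genes. It was 0.98 for *PAO*, 0.82 for *SGR1*, 0.76 for *PPH*, 0.29 for *NYC1*, -0.19 for *CLH1* and -0.49 for *RCCR*. None of the 8 lay above 1, where 9.46% of 16180 genes did, and again no test stands behind this count. These 16180 genes had a value above 0 FPKM in all 4 groups and reached 1 FPKM in at least 1 of them. Genes at 0 FPKM in any group are left out here, unlike in the shares for pairs of groups. *SGR2* at -1.93 and *HCAR* at -1.13 lay below -1, where 18.6% of genes did. With a pseudocount of 1 FPKM, *SGR2* was at -0.71 and no longer past this limit, while *HCAR* was at -1.08. Between the genotypes, *SGR2* differed 2.05-fold with treatment and 7.81-fold without it. *HCAR* differed 2.25-fold with treatment and 1.03-fold without it. The median difference was 0.05 for the 8 genes and -0.07 for the 16180 genes.

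Between the untreated genotypes, *SGR2* was the only one of the 8 that was at least 2-fold higher in *ros1*, where 6.55% of all genes were. *RCCR* was the only one at least 2-fold lower, where 10.5% of all genes were. The other 6 differed by at most 1.23-fold. The median log2 ratio was 0.00 for the 8 genes and 0.01 for all 18799 genes compared.

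Between the treated genotypes, *SGR2* was 2.05-fold higher in *ros1* and just past the limit, which 13.2% of all genes passed. *SGR1* was 1.99-fold higher and just short of it, followed by *PAO* at 1.85-fold, *NYC1* at 1.402-fold and *PPH* at 1.37-fold. *RCCR* and *HCAR* were lower by 6.31-fold and 2.25-fold, past the limit that 22.9% of all genes passed in this direction. The median log2 ratio was 0.47 for the 8 genes, beside 0.02 for all 16329 genes compared.

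**Figure D3:**
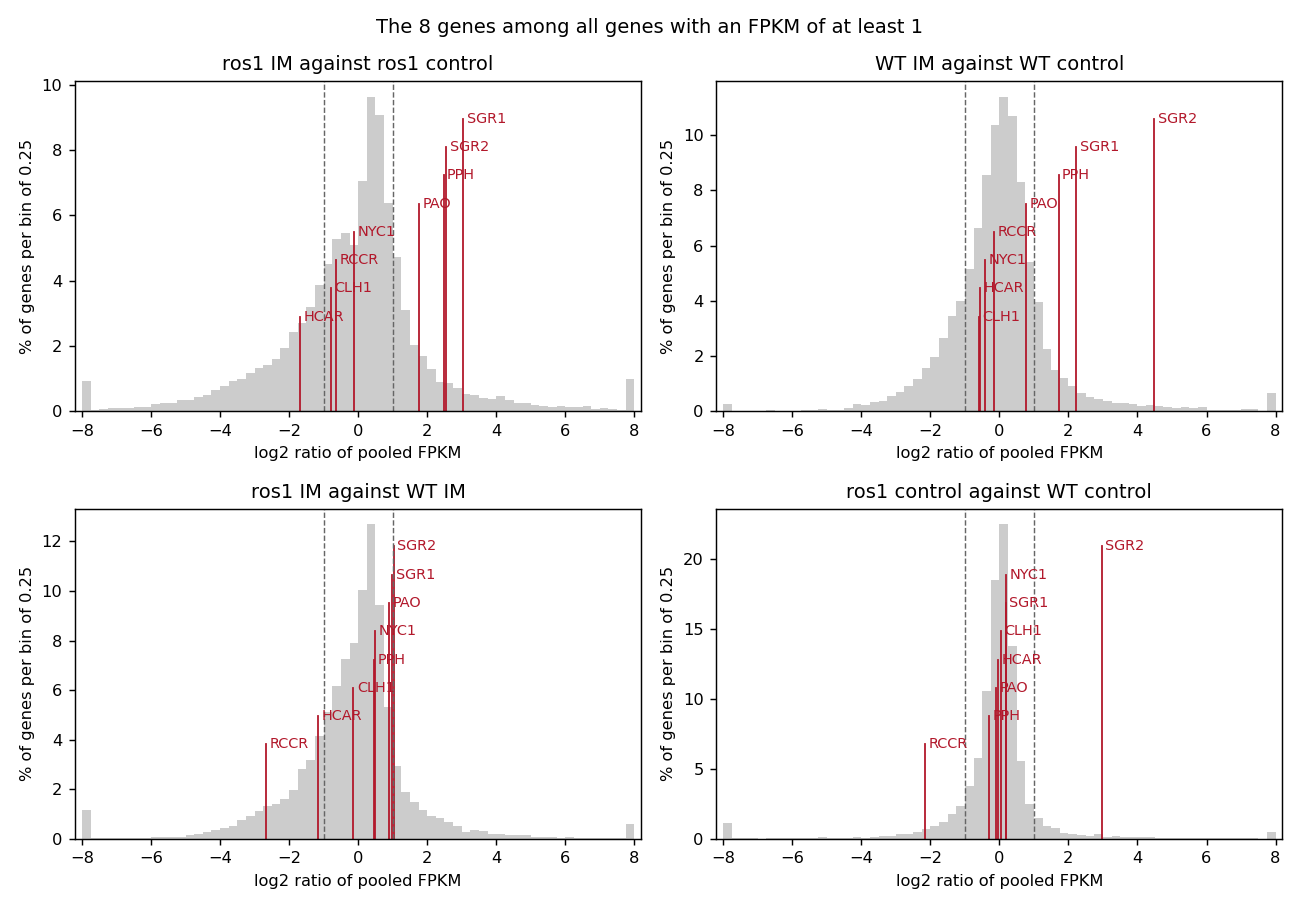
Share of all genes in bins of 0.25 of the log2 ratio (grey, with ratios beyond 8 in either direction gathered in the end bins) and the 8 genes as red lines, whose heights carry no value. Panels show *ros1* IM against *ros1* control, WT IM against WT control, *ros1* IM against WT IM and *ros1* control against WT control, and dashed lines mark 2-fold. In the last panel *SGR2* (2.96) and *RCCR* (-2.16) stand apart from the other 6 genes.

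The order of the 8 transcripts by FPKM, which is scaled to transcript length, differed between treated and untreated rosettes. After *NYC1*, the next were *PAO*, *PPH* and *SGR1* in *ros1* IM and *CLH1*, *HCAR* and *PAO* in *ros1* control. In WT IM they were *PPH*, *PAO* and *RCCR*, and in WT control *CLH1*, *RCCR* and *HCAR*. *SGR1* and *SGR2* were the lowest in both untreated groups. *RCCR* was the lowest in *ros1* IM, where *PAO*, whose product it reduces, was the second highest. The ratio of *PAO* to *RCCR* was 13.6 in *ros1* IM and 2.57 in *ros1* control, and 1.16 in WT IM and 0.609 in WT control. Neighbours in these orders cannot be tested against each other, as the spread between libraries is not known.

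A further 9 genes of breakdown or its control were followed, without separating those that hold breakdown back. In *ros1* IM against *ros1* control, 4 of the 8 with a value were at least 2-fold higher and 2 lower, beside 20.7% and 26.8% of all genes. In WT IM against WT control, 4 of 9 were higher and 1 lower, beside 14.8% and 18.7% of all genes. *CV*, which marks chloroplast proteins for removal, stood at 116 FPKM in *ros1* IM and 8.40 FPKM in *ros1* control, and at 121 FPKM in WT IM and 5.18 FPKM in WT control. *CYP89A9*, a cytochrome P450 that acts on the colourless catabolites, was 4.43-fold higher after treatment in *ros1* and 7.85-fold higher in WT. The highest of these ratios in WT was that of *CV*, at 23.3-fold, beside 22.3-fold for *SGR2*.

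*MES16*, an esterase that demethylates the fluorescent catabolites, stood at 90.3 FPKM in *ros1* IM and 38.7 FPKM in *ros1* control, and at 13.3 FPKM in WT IM and 21.6 FPKM in WT control. It was 2.33-fold higher after treatment in *ros1* but 1.63-fold lower in WT. *TIC55*, which hydroxylates the catabolites, stood at 92.0 FPKM in *ros1* control, 95.6 FPKM in WT IM and 109 FPKM in WT control, with no value in *ros1* IM. Past *RCCR*, the later steps thus shared no single direction.

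*SGRL* and *NOL* are relatives of members of the 8. *SGRL*, another gene of the SGR family, was 7.92-fold lower after treatment in *ros1* and 3.81-fold lower in WT, opposite to *SGR1* and *SGR2*. *NOL*, the second chlorophyll *b* reductase, was 1.58-fold lower in *ros1* and 1.57-fold lower in WT, the same direction as *NYC1*. *CLH2*, the second chlorophyllase, stood at 1.69 FPKM in *ros1* IM and 1.31 FPKM in *ros1* control, and at 9.52 FPKM in WT IM and 3.83 FPKM in WT control. Among untreated rosettes, the *ros1* value was 2.93-fold below that of WT, the only one of the 9 past 2-fold there.

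*BCM1* and *BCM2* encode thylakoid proteins that hold back chlorophyll breakdown. *BCM1* stood at 9.05 FPKM in *ros1* IM and 129 FPKM in *ros1* control, and at 61.6 FPKM in WT IM and 111 FPKM in WT control. Its value was lowest in *ros1* IM, where *SGR1* and *SGR2* were highest. *SGR1* and *SGR2* were lowest in WT control, but *BCM1* was highest in *ros1* control. *BCM2* moved the other way and was 4.14-fold higher after treatment in *ros1* and 2.53-fold higher in WT.

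Of 5 genes that salvage the released phytol, *PES1* and *PES2* were at least 2-fold higher after treatment in both genotypes, beside 20.7% of all genes in *ros1* and 14.8% in WT. None was at least 2-fold lower, beside 26.8% of all genes in *ros1* and 18.7% in WT. *PES1* and *PES2* encode phytyl ester synthases, which store phytol and fatty acids as esters. *PES2* stood at 144 FPKM in *ros1* IM and 5.10 FPKM in *ros1* control, and at 48.1 FPKM in WT IM and 4.11 FPKM in WT control. *PES1* was 6.36-fold higher after treatment in *ros1* and 2.76-fold higher in WT. For both genes, as for *SGR1*, *PPH* and *PAO*, the larger ratio was that of *ros1*. The other 3, *VTE5*, *VTE6* and *FOLK*, encode kinases that act on phytol, phytyl phosphate and farnesol, and were lower after treatment by at most 1.95-fold, the ratio of *VTE5* in *ros1*. *VTE5* falls outside the rule for named genes and was added after its values were seen.

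A list of 22 transcription factors was followed as regulators of breakdown genes, without separating activators from repressors. In *ros1* IM against *ros1* control, 10 of the 21 with a ratio were at least 2-fold higher and 4 lower. Of all genes, 20.7% were higher and 26.8% lower. In WT IM against WT control, 13 of 22 were higher and 1 lower, beside 14.8% and 18.7% of all genes. The 4 named here had the largest ratio in WT without a pseudocount and encode NAC factors of leaf senescence. All 4 were under 1 FPKM in WT control, so that this order is loose. With a pseudocount of 1 FPKM, *ANAC019*, at 53.5 FPKM in WT IM and 1.59 FPKM in WT control, came first and *ANAC055* came 6th. *ORE1* stood at 89.9 FPKM in *ros1* IM and 2.21 FPKM in *ros1* control, and at 15.1 FPKM in WT IM and 0.272 FPKM in WT control. *NAP* stood at 69.6 FPKM in *ros1* IM and 1.21 FPKM in *ros1* control, and at 16.8 FPKM in WT IM and 0.292 FPKM in WT control. Both had the order of groups seen for *SGR2*, with *ros1* control between the treated groups and WT control. This order was also that of *SGR1*, *PES1*, *PES2* and further regulators, among them *ANAC055* and *ANAC019*, so it is not particular to these genes.

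*ANAC016* stood at 23.0 FPKM in *ros1* IM and 7.24 FPKM in *ros1* control, and at 6.88 FPKM in WT IM and 0.153 FPKM in WT control. Its untreated *ros1* level was thus close to that of treated WT. *ANAC055* stood at 34.0 FPKM in *ros1* IM and 0.455 FPKM in *ros1* control, and at 4.89 FPKM in WT IM and 0.0293 FPKM in WT control. Of the 21 regulators with a ratio between the untreated genotypes, 5 were at least 2-fold higher and 1 lower in *ros1* control, beside 6.55% and 10.5% of all genes.

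The genes that make chlorophyll and those that bind it moved one way. Of the 15 synthesis genes, 14 of the 14 with a value were at least 2-fold lower in *ros1* IM than in *ros1* control, with a median log2 ratio of -3.97, and 13 of 15 in WT IM than in WT control, with a median of -1.98. Of 18 antenna genes, 18 were at least 2-fold lower in *ros1* (median -5.20) and 17 in WT (median -1.96). Of all genes, 26.8% were at least 2-fold lower in *ros1* (median 0.12) and 18.7% in WT (median 0.01). *PORB*, a protochlorophyllide reductase, stood at 10.7 FPKM in *ros1* IM and 528 FPKM in *ros1* control, and at 68.5 FPKM in WT IM and 433 FPKM in WT control. *NYC1*, *RCCR* and *CLH1* lay above the medians of the synthesis and antenna genes in both genotypes. *HCAR*, the lowest of the 8 in *ros1* with a log2 ratio of -1.69, also lay above both medians there. In WT it was at -0.56, again above both.

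**Figure D4:**
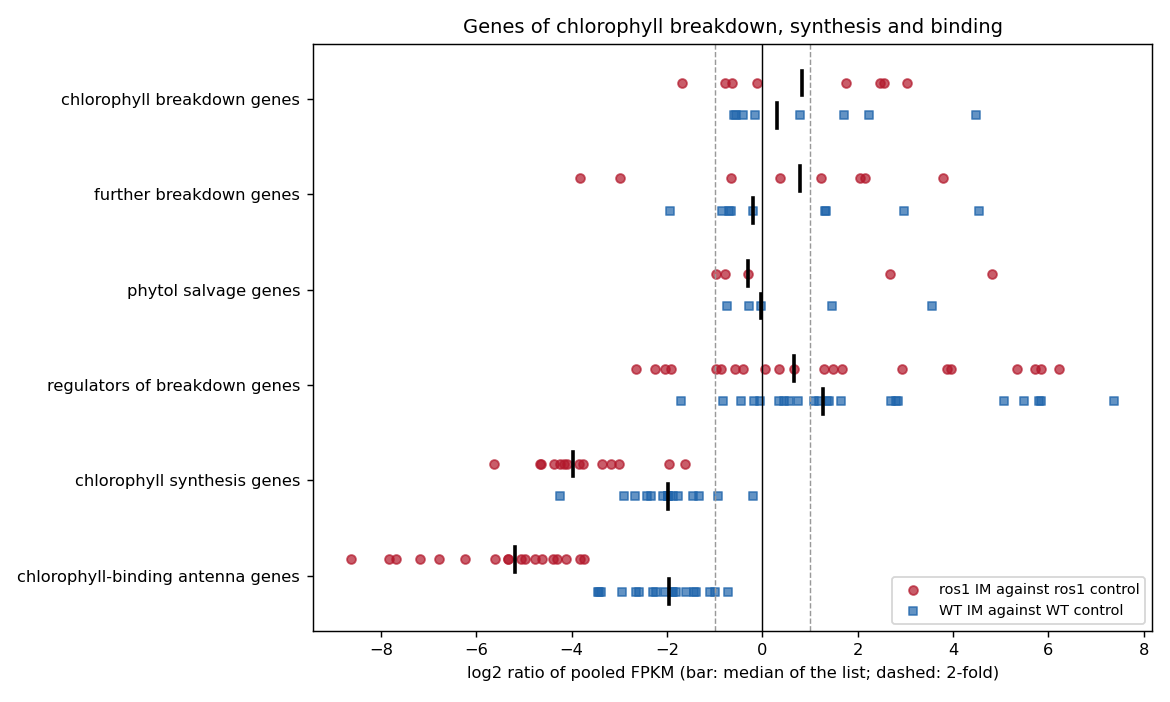
Log2 ratio of pooled FPKM in treated over untreated rosettes for the genes of 6 lists, each point 1 gene, *ros1* as circles above and WT as squares below, with a black bar at the median of the list. The 8 chlorophyll breakdown genes spread to both sides of 0, whereas the synthesis and antenna genes lie left of it, further in *ros1* (medians -3.97 and -5.20) than in WT (medians -1.98 and -1.96).

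For the 3 members with the widest range, the genes of most similar pattern were taken by the distance of log2(FPKM + 1), centred on its mean over the 4 groups, among 16840 genes. With 4 points, a small distance is a description of these groups only. For *SGR2* the closest were *MSS1* (AT5G26340) at 0.109, *UGT72E2* (AT5G66690) at 0.204 and AT1G13990 at 0.294. *MSS1*, a hexose transporter, stood at 151 FPKM in *ros1* IM and 27.8 FPKM in *ros1* control, and at 71.9 FPKM in WT IM and 8.75 FPKM in WT control. For *SGR1* they were AT1G69790 at 0.0721, *BGLU10* (AT4G27830) at 0.0763 and AT2G18720 at 0.111. For *RCCR* they were AT5G22700 at 0.0988, *RPP8* (AT5G43470), a disease resistance gene, at 0.179 and *FAMT* (AT3G44860), a farnesoic acid methyltransferase, at 0.214. *RPP8* stood at 7.60 FPKM in *ros1* IM and 11.1 FPKM in *ros1* control, and at 41.7 FPKM in WT IM and 52.2 FPKM in WT control. That it was low in both *ros1* groups follows from its choice by likeness to *RCCR*.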

How the data were processed

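RNA of entire rosettes was sequenced in 8 libraries, 2 per group, as single reads of 100 bases after TruSeq RNA preparation. Per the submitters' processing notes and the study's methods, FastQC 0.10.1 served for quality control and the FASTX-Toolkit for trimming, Bowtie2 and TopHat2 aligned the reads to TAIR10, and Cufflinks estimated expression. The study states that a smaller share of reads aligned in *ros1* than in WT libraries. The FPKM values were deposited by the authors as 1 value per gene and group, pooled over the libraries by Cuffdiff. The authors' tables also hold fold changes, test statistics, p-values and q-values of their own comparisons, which were not used. Depth per library and values per library were not analysed here, so no test, SD or interval was computed.

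Ratios were taken without a pseudocount, using Python 3.11.15 and pandas 2.3.3, and the counting was tested on simulated data. The table of all genes ends after 31402 genes for WT IM, and 32920 genes have a WT IM value from all tables. Across the tables, 157256 repeated values were compared and 0 were unequal. Alternatives were a pseudocount of 1, centring on the median, a fold of 1.5 or 4, and an FPKM of at least 5 or no minimum. Promoters were read from RefSeq TAIR10.1, where 48.0% of 31416 matched genes have the start or the end given in the files. The windows of *SGR1* and *PAO* overlap a neighbouring gene. All 8 genes matched a RefSeq locus tag. All genes of the further breakdown list could be named, and from each other list up to 4 with the largest ratio in WT. The members and lists were chosen with earlier results of these data known.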

Additional observations from a re-analysis of the deposited data

How the results depend on the processing

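Of 58 alternative values for the counts and medians, 50 stayed within 1.5 times the count, or 1.5-fold of the median, and of 80 for single genes 77 stayed within 1.5-fold. The other 3 were values of *SGR2* with a pseudocount of 1, given in the report. Part of this stability was fixed in advance. For medians and single genes, centring shifted values by at most 0.12 log2 and could not pass this limit, which covers 40 of the 80. For single genes the rest used a pseudocount of 1, where only *SGR2* could pass the limit. The lowest value among the other genes was 8.96 FPKM, of *SGR1* in WT control, too high for the pseudocount to matter. The 8 counts without a minimum FPKM could not change either, as every gene reached the minimum in every comparison. Centring on the median of all genes changed no count past 2-fold but turned the sign of 2 medians near 0: 0.00 became -0.01 for *ros1* control against WT control, and 0.05 became -0.05 for the response in *ros1* minus that in WT. The alternatives for the response difference of single genes and for the order of the regulators were chosen after seeing the data. With a fold of at least 1.5 in place of 2, 3 genes were lower in *ros1* IM than in *ros1* control, 1 was lower in WT IM than in WT control, and among treated rosettes 3 were higher in *ros1* than in WT. With a fold of at least 4, 0 were lower in *ros1* IM than in *ros1* control, and *ros1* IM had 0 higher and 1 lower relative to WT IM. An FPKM of at least 5 left 0 genes higher in *ros1* control than in WT control, since *SGR2* is under it in both groups. A pseudocount of 1 left 0 higher among treated rosettes in *ros1* against WT, as *SGR2* lies just past 2-fold. The cause of these changes is the setting itself. No paired analysis was possible because the deposited values pool both libraries of a group, and for the same reason no library could be left out. The 0.480 FPKM of *SGR2* in WT control is the lowest of the values, and the depth behind it is unknown.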
